A study of Mus musculus with 8 samples.

Results

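Secondary-granule neutrophils were examined among CD45+ leukocytes of inflamed paw joints, in mice that had received MCTR3-reprogrammed monocytes and in mice that had received vehicle-treated monocytes. MCTR3 (maresin conjugate in tissue regeneration 3) is a lipid mediator of the host. A cell was counted as a neutrophil when S100a8 and S100a9 together made up at least 5% of its unique molecular identifiers (UMIs, each standing for 1 captured transcript molecule). It was counted as a secondary-granule neutrophil when Camp, Ngp and Ltf together made up at least 3% of its UMIs and it held fewer than 2 Fcnb UMIs. The members were thus selected on their measured Camp, Ngp, Ltf, S100a8, S100a9 and Fcnb UMIs. The rule took 1036 cells, out of 6578 neutrophils and 10256 cells kept in all. The other 5542 neutrophils served as the cells they are set against, and 98 of those were Fcnb cells, with 2 or more Fcnb UMIs.

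The Mono+MCTR3 group was made up of 4 C57BL/6 mice of 10 weeks, given bone marrow monocytes of arthritic C57BL/6 donors that had been incubated for 90 min with 1 nM MCTR3. The Mono group was made up of 4 C57BL/6 mice of the same age, given the same kind of monocytes incubated with vehicle. Arthritis was raised in all 8 recipients by injection of K/BxN serum, whose antibodies cause joint inflammation, on days 0, 2 and 9. Monocytes followed on day 12, and paws were taken on day 22. The treatment reached the donor monocytes and not the neutrophils studied here, the recipients kept their own leukocytes, and no group without arthritis or without transferred monocytes was included. One cell suspension was prepared per mouse, and each mouse is 1 replicate. The number after a cell barcode tells the mice of a group apart, but it cannot be matched to a labelled mouse, so the mouse numbers used here are those barcode numbers.

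Neutrophils make their granules in the bone marrow in a fixed order. Promyelocytes fill primary (azurophil) granules with myeloperoxidase and serine proteases, myelocytes and metamyelocytes fill secondary (specific) granules with lactoferrin, cathelicidin and lipocalin-2, and band cells fill tertiary granules with gelatinase. Transcription of each set largely ceases as the cell passes to the next stage. In the mouse, the transcription factor C/EBP-epsilon is required for secondary granules, and cells with secondary-granule transcripts are taken as immature neutrophils.

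The stretch upstream of the start of Ltf, Ngp, Camp and Lcn2 is printed because Ltf, Ngp and Camp chose the cells and Lcn2 is a further marker of them. Each line gives the 250 bases before the gene start from RefSeq (GRCm38.p6), 5′ to 3′ on the gene's own strand. Capitals mark matches, on either strand, to the C/EBP core TTGCNNAA. The positions are chr9:111019042-111019291 on the plus strand for Ltf, chr9:110419558-110419807 on the plus strand for Ngp, chr9:109849457-109849706 on the minus strand for Camp and chr2:32387740-32387989 on the minus strand for Lcn2.
Ltf: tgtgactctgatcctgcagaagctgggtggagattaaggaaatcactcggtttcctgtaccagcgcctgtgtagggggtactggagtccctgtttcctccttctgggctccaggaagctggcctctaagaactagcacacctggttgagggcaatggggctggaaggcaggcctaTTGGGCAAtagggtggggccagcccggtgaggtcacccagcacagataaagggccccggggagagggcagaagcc
Ngp: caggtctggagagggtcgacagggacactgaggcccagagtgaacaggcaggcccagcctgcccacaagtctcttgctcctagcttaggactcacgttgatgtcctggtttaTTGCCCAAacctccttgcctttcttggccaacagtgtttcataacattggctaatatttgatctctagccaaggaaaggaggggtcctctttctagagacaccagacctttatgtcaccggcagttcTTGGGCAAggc
Camp: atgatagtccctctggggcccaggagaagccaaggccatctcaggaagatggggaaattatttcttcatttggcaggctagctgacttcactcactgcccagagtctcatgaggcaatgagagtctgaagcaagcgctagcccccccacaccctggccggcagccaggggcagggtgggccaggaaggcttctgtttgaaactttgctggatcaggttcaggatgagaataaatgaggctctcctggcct
Lcn2: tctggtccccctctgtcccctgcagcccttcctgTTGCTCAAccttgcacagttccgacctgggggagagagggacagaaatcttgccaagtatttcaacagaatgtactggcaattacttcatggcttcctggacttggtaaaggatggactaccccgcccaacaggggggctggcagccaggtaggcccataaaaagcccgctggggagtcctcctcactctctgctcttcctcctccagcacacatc
The starts of Camp and Ngp lie 570 kb apart on chromosome 9, and those of Ngp and Ltf 599 kb apart. All 7 marker genes (Ltf, Ngp, Camp, Cd177, Itgb2l, Lcn2 and Ifitm6) had an entry. The C/EBP core was found before 3 of the 7, with 1 match before Ltf, 2 before Ngp and 1 before Lcn2. It was found in 9.56% of the 32851 upstream windows of the same length. The nearest match lay 75 bases before the start of Ltf, 11 bases before that of Ngp and 216 bases before that of Lcn2. Camp, Cd177, Itgb2l and Ifitm6 had no such letters in this window. The core GAGGAA of PU.1, a myeloid transcription factor, was found before 4 of the 7 (Ltf, Cd177, Itgb2l and Lcn2) and in 23.3% of all windows. The Runx core TGTGGT was found before Ifitm6 alone and in 14.05% of all windows. A match of letters is no measure of binding.

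The cells of each mouse that met the rule numbered 135, 269, 113 and 45 in Mono+MCTR3 mice, against 102, 77, 136 and 159 in Mono mice. They held 4497382 UMIs in all, and between 188295 and 1272076 UMIs per mouse. The median secondary-granule neutrophil held 4074 UMIs, against 1615 in the 5444 other neutrophils that were not Fcnb cells. Over all cells kept, each mouse had between 1731045 and 6009009 UMIs. No barcode of these cells was shared between mice. Scrublet, a doublet caller, marked 6 of the 1036 cells.

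A long low shoulder, and not a gap, separated the cells from other neutrophils. Camp, Ngp and Ltf made up a median of 10.2% of their UMIs, with a range of 3.003% to 22.4%. The same sum had a median of 0.0702% in the other neutrophils. The limit of 3% fell on the shoulder, with 65 cells just inside it (3% to 3.5%) and 64 neutrophils just outside it (2.5% to 3%). S100a8 and S100a9 made up a median of 35.5% of UMIs just inside the limit and 35.6% just outside it. No cell met the limits on Camp, Ngp, Ltf and Fcnb with S100a8 and S100a9 under 5%, and the lowest share of these in a secondary-granule neutrophil was 18.1%. A single Fcnb UMI was present in 45 of the cells, whose median Camp, Ngp and Ltf share was 16.01%, against 9.78% in the 991 cells with none.

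**Figure D1:**
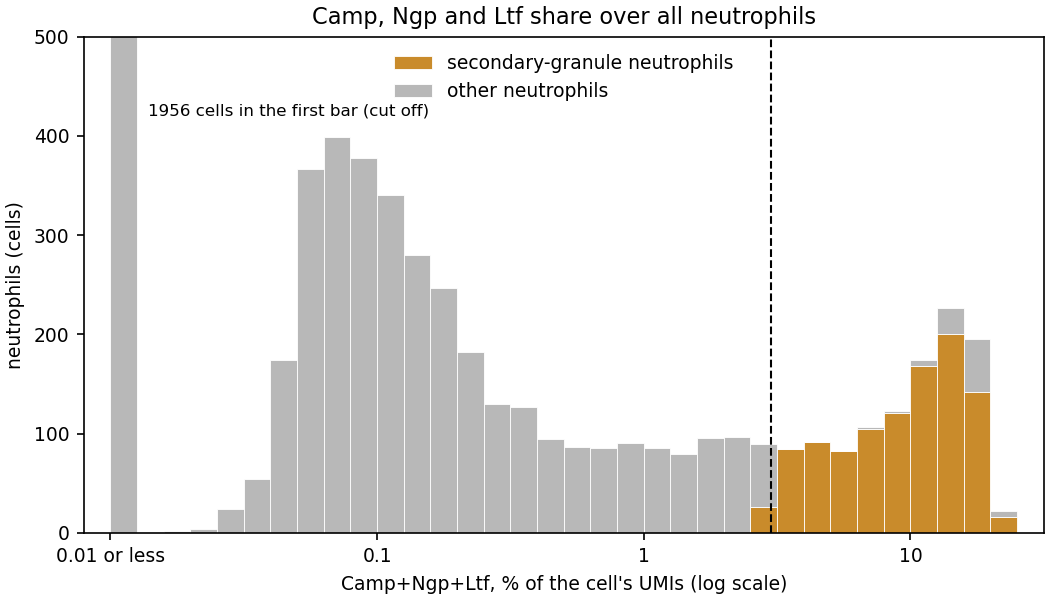
Number of neutrophils (vertical axis) by the share of UMIs from Camp, Ngp and Ltf (horizontal axis, log scale), with the 1036 secondary-granule neutrophils in orange stacked with the other neutrophils in grey. The dashed line marks 3%, and the first bar, with 1956 cells at or under 0.01%, is cut off. The orange cells form the right-hand peak, and the grey cells on top of that peak are Fcnb cells.

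The 7 markers were present in every mouse. Camp was found in 100% of the 1036 cells, Ngp in 99.8%, Lcn2 in 100%, Ifitm6 in 99.7%, Ltf in 96.0%, Cd177 in 92.2% and Itgb2l in 64.9%. When each cell was thinned to 500 UMIs, the share with Itgb2l was 12.8% and that with Cd177 36.6%. In the 1442 cells with 2 or more UMIs of the B-cell genes Cd79a and Cd79b, which should lack granule transcripts, 34.1% held a Camp UMI, 44.2% an Ngp UMI and 8.81% an Ltf UMI, at a median of 2271.5 UMIs per cell. Cd177 was found in 0.971% of those cells and Itgb2l in 0.485%. The 5444 other neutrophils that were not Fcnb cells gave 33.8% for Camp and 8.91% for Ltf at a median of 1615 UMIs, near the shares in the cells with B-cell genes. At 500 UMIs per cell, Ltf was found in 3.09% of those neutrophils and 2.84% of the cells with B-cell genes, and Camp in 15.5% and 7.91%. Levels over summed cells are given from here on as counts per 1000000 UMIs of those cells (CPM). Ltf had 87.5 CPM in the other neutrophils that were not Fcnb cells and 36.9 CPM in the cells with B-cell genes, and Camp 734 and 175 CPM.

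Ltf encodes lactoferrin, the iron-binding protein of secondary granules. It reached 10593, 11269, 12584 and 8970 CPM in the secondary-granule neutrophils of Mono+MCTR3 mice and 9773, 12565, 11456 and 11683 CPM in those of Mono mice. In the other neutrophils it reached 1283, 2215, 1015 and 221 CPM in Mono+MCTR3 mice and 731, 521, 1508 and 1349 CPM in Mono mice. The lowest level in the secondary-granule neutrophils of any mouse was above the highest in the other neutrophils, and Ltf is one of the genes the rule used.

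Camp encodes cathelicidin, the precursor of an antimicrobial peptide. Its levels were 47208, 47284, 44029 and 35991 CPM in the secondary-granule neutrophils of Mono+MCTR3 mice and 39060, 42417, 42407 and 44044 CPM in those of Mono mice. Ngp, a cystatin-like protein of the same granules, had 55478, 57469, 63692 and 48456 CPM in Mono+MCTR3 mice and 55374, 65727, 57698 and 60542 CPM in Mono mice. Mouse 4 of the Mono+MCTR3 group, with only 45 cells, had the lowest level of Ltf, Camp and Ngp alike. The remaining 7 mice were themselves spread, from 39060 to 47284 CPM for Camp and from 55374 to 65727 CPM for Ngp.

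The other 4 markers were not used by the rule. Cd177, a surface protein of neutrophils that binds PECAM-1, had 938, 910, 1162 and 1121 CPM in Mono+MCTR3 mice and 962, 1238, 1045 and 1094 CPM in Mono mice. Itgb2l, an integrin beta chain related to Itgb2, had 306, 258, 344 and 276 CPM in Mono+MCTR3 mice and 352, 355, 317 and 284 CPM in Mono mice. The groups overlapped for both genes. Reads that Itgb2l shares with Itgb2 could have been assigned to either.

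Lcn2, which binds the siderophores by which bacteria take up iron, had 11674, 13816, 10453 and 9066 CPM in Mono+MCTR3 mice and 10752, 9382, 10329 and 11935 CPM in Mono mice. Ifitm6, a member of the interferon-induced transmembrane family, had 3059, 3680, 3493 and 3739 CPM in Mono+MCTR3 mice and 3467, 3481, 3604 and 2927 CPM in Mono mice. Again the groups overlapped. In the other neutrophils of the same mice Lcn2 ran between 1350 and 5987 CPM and Ifitm6 between 430 and 1492 CPM, below every value in the secondary-granule neutrophils.

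**Figure D2:**
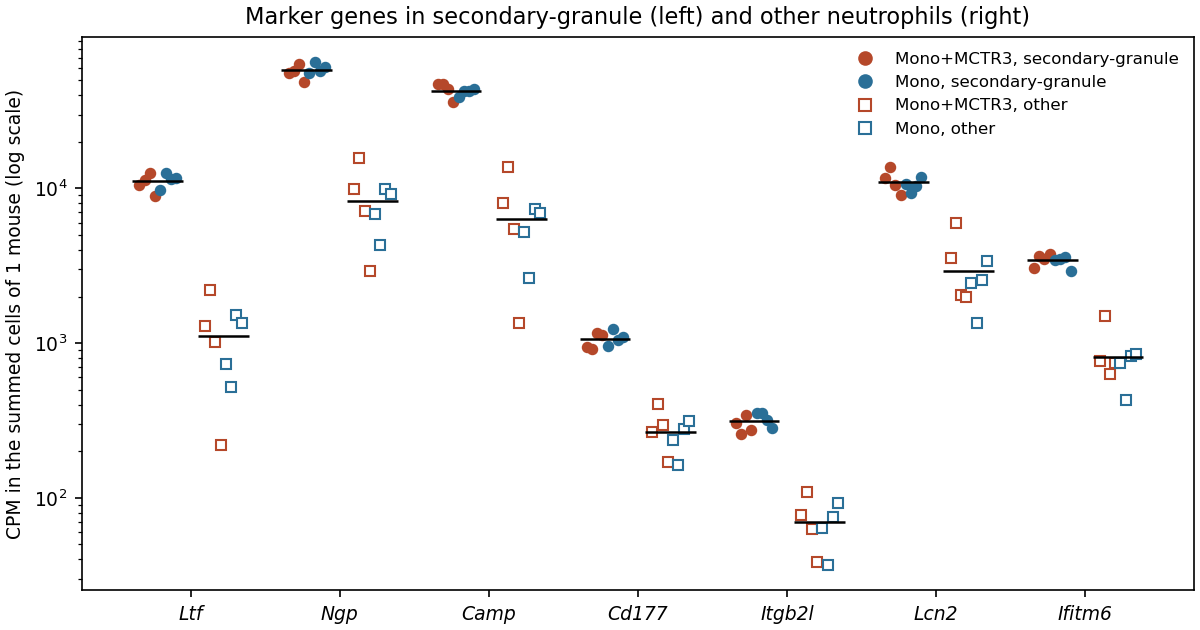
CPM of the 7 markers (vertical axis, log scale) in the summed cells of each mouse, with secondary-granule neutrophils as filled circles on the left of each gene and other neutrophils as open squares on its right. Red stands for Mono+MCTR3, blue for Mono, and the bar is the mean of 8 mice. For every marker the filled circles lie above the open squares, and red and blue circles overlap. For Ltf, Ngp and Camp the choice of cells fixed the separation of circles from squares.

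The spread between single cells was described for the abundant transcripts, of which S100a8, Ltf, Camp and Ngp were used by the rule. S100a8 made up 18.6% of a cell's UMIs at the 10th percentile, 21.96% at the median and 25.4% at the 90th percentile. Ltf had 0.0827%, 0.961% and 1.89% at the same percentiles. Camp had 1.12%, 3.78% and 7.36%, and Ngp 2.28%, 5.14% and 8.72%. Retnlg, which encodes the resistin-like protein of late neutrophils and was not used by the rule, had 0.328%, 3.36% and 7.91%.

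Against the other neutrophils, secondary-granule neutrophils had higher levels of 10 of 19 measured secondary-granule genes, among them the rule's Ltf, Camp and Ngp. Lower levels were found for 15 of 19 measured inflammatory cytokine genes and 15 of 20 mature neutrophil genes. The contrast is a description with no test, because the rule divides the same cells. Of 4930 genes with 100 or more UMIs, 114 (2.31%) were at least 2-fold higher and higher in 8 of 8 mice, and 481 (9.76%) were at least 2-fold lower and lower in 8 of 8 mice. The median log2 ratio over the 4930 genes, with 10 CPM added to both levels, was -0.24. The 3 granule genes and the 2 S100 genes of the rule made up 11.2% ± 0.916 and 34.5% ± 1.26 of the UMIs (SD, n = 8 mice), which leaves less of the total to every other gene. The other neutrophils include the Fcnb cells, which carry the same granule transcripts.

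Among 19 measured genes of the secondary-granule list, 10 were past the fold limit upward and 0 downward, against 2.31% and 9.76% of all genes. The median log2 ratio was 1.77. The count of 10 and the median include Ltf, Camp and Ngp, whose direction the choice of cells fixed. The log2 ratio was 3.57 ± 0.96 for Ltf, 3.02 ± 0.93 for Camp and 2.97 ± 0.74 for Ngp (SD, n = 8 mice), and the rule used all 3 genes. Ifitm6 followed with 2.14, Itgb2l with 2.07, Lcn2 with 2.02 and Cd177 with 2.001. Chil3, a chitinase-like lectin, averaged 2361 ± 633 CPM in secondary-granule neutrophils and 768 ± 491 CPM in other neutrophils. Against neutrophils with a low Camp, Ngp and Ltf share its log2 ratio was 5.62. Hp, the gene of haptoglobin, averaged 2040 ± 183 CPM and 2169 ± 271 CPM in these classes, and Mmp8, the neutrophil collagenase, 2436 ± 277 CPM and 1228 ± 199 CPM. Membership of the list was thus no guarantee of a higher level.

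Cebpe encodes C/EBP-epsilon. Its levels were 263, 274, 308 and 133 CPM in the secondary-granule neutrophils of Mono+MCTR3 mice and 221, 283, 246 and 206 CPM in those of Mono mice, against 101, 141, 86.2 and 48.0 CPM and 71.1, 50.5, 85.8 and 77.1 CPM in the other neutrophils of the same groups. Every mouse had more in its secondary-granule neutrophils, and the mean log2 ratio was 1.47 ± 0.40. It was the 1 gene of 13 measured granulopoiesis factors that passed the fold limit upward, against 2.31% of all genes, with 9.76% downward. Of the 4 that passed it downward, Cebpb averaged 1466 ± 174 CPM in secondary-granule and 5330 ± 1356 CPM in other neutrophils, and Junb 517 ± 90.4 CPM and 1840 ± 630 CPM. Spi1, the gene of PU.1, averaged 461 ± 27.2 CPM and 648 ± 58.4 CPM.

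The NADPH oxidase makes superoxide at the granule and plasma membranes. Cybb, its catalytic membrane subunit, had 814, 708, 750 and 637 CPM in the secondary-granule neutrophils of Mono+MCTR3 mice and 649, 606, 701 and 738 CPM in those of Mono mice. In the other neutrophils of all 8 mice it lay between 91.0 and 217 CPM. Cyba, its partner subunit, averaged 2363 ± 82.4 CPM and 2132 ± 76.5 CPM in secondary-granule and other neutrophils. Hvcn1, a proton channel that sustains the oxidase, averaged 33.4 ± 8.35 CPM and 10.3 ± 6.47 CPM. Cybb and Hvcn1 were the 2 of 9 measured oxidase genes above the fold limit, and 0 were below it. Over all genes 2.31% were above it and 9.76% below.

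The 10 genes with the highest ratios also held some outside the secondary-granule list. Acvrl1, a receptor of the transforming growth factor beta family, averaged 116 ± 21.3 CPM in secondary-granule neutrophils and 17.001 ± 6.60 CPM in other neutrophils. In single mice it ran from 95.1 to 155 CPM in secondary-granule neutrophils, and no list held it. Krt81, a hair keratin, had 103, 112, 21.1 and 63.7 CPM in Mono+MCTR3 mice and 80.0, 137, 273 and 37.5 CPM in Mono mice, and was found in 9.27% of the cells. Its levels differed widely between mice of 1 group. Ldhc, the testis form of lactate dehydrogenase, averaged 60.9 ± 25.4 CPM and 6.78 ± 6.17 CPM, and Anxa3, an annexin, 270 ± 26.8 CPM and 61.3 ± 21.6 CPM in secondary-granule and other neutrophils. In the Fcnb cells of all mice summed, Krt81 had 81.8, Ldhc 60.0 and Anxa3 295 CPM, so these 3 were not particular to the secondary-granule neutrophils. Acvrl1 had 18.5 CPM in the Fcnb cells.

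Leukotriene B4 is a lipid that draws neutrophils to inflamed tissue. Lta4h, the enzyme that makes it, averaged 178 ± 38.2 CPM in secondary-granule neutrophils and 58.0 ± 28.1 CPM in other neutrophils. Ltb4r1, its high-affinity receptor, averaged 397 ± 54.4 CPM and 126 ± 26.2 CPM. Alox5ap, which presents arachidonic acid to the first enzyme of the route, averaged 1675 ± 109 CPM and 2183 ± 252 CPM. In the lipid mediator and arginine list, 2 of 12 measured genes (Lta4h and Mgst2) were above the fold limit and 3 below it. The shares over all genes were 2.31% above and 9.76% below. Alox12, Alox15, Ltc4s and Arg1 were at 0 UMIs in the secondary-granule neutrophils, which allows a level of up to 0.667 CPM each by counting error alone. Arg2, the mitochondrial arginase, averaged 111 ± 35.7 CPM in secondary-granule neutrophils and 491 ± 101 CPM in other neutrophils.

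On the low side stood genes of late and activated neutrophils. In the inflammatory cytokine list, 15 of 19 measured genes were below the fold limit and 0 above it, with a median log2 ratio of -2.28. Of all genes, 9.76% were below the limit and 2.31% above. Il1b, the gene of interleukin-1 beta, had 600, 355, 522 and 489 CPM in the secondary-granule neutrophils of Mono+MCTR3 mice and 350, 382, 440 and 444 CPM in those of Mono mice. In the other neutrophils it lay between 2624 and 5202 CPM over the 8 mice, so no level came near those in secondary-granule neutrophils. Cxcl2, a neutrophil-attracting chemokine, averaged 576 ± 160 CPM and 4598 ± 1133 CPM in secondary-granule and other neutrophils. Nfkbia, an inhibitor of NF-kappaB, averaged 322 ± 94.2 CPM and 1589 ± 372 CPM.

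The lowest ratio of all was that of Wfdc17, a secreted protein of the whey acidic protein family, at 22.4 ± 17.4 CPM in secondary-granule neutrophils and 968 ± 687 CPM in other neutrophils. Pla2g7, which breaks down platelet-activating factor, averaged 11.96 ± 5.75 CPM and 439 ± 139 CPM, and the tetraspanin Tspan13 8.41 ± 4.08 CPM and 350 ± 94.97 CPM. Ccl6, a chemokine, had 372, 366, 385 and 574 CPM in Mono+MCTR3 mice and 465, 385, 472 and 412 CPM in Mono mice, against 5452 to 8038 CPM in the other neutrophils of the 8 mice. The log2 ratio of Ccl6 varied little between mice, at -4.01 ± 0.25. Sirpb1b, Sirpb1c and Gm5150, which encode related cell-surface receptors, had log2 ratios of -3.75, -3.63 and -3.72, but their reads may be shared between the copies. Atf3 (-4.04), Ccl4 (-3.94) and Ifitm1 (-3.80) make up the lowest 10.

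Of 20 measured genes of the mature neutrophil list, 15 were below the fold limit and 0 above it, with a median of -1.81. Over all genes the shares were 9.76% and 2.31%. Csf3r, the receptor for granulocyte colony-stimulating factor, averaged 85.0 ± 12.7 CPM in secondary-granule and 628 ± 131 CPM in other neutrophils. Srgn, a granule proteoglycan, averaged 1225 ± 243 CPM and 5032 ± 367 CPM. Retnlg was closer, with 34009 ± 4958 CPM and 45155 ± 5100 CPM.

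Receptors that guide neutrophils went both ways. Of 17 measured migration and adhesion genes, 4 were above the fold limit and 6 below it, against 2.31% and 9.76% of all genes. Cxcr2, the receptor through which neutrophils leave the marrow, had 151, 85.7, 101 and 154 CPM in the secondary-granule neutrophils of Mono+MCTR3 mice and 104, 149, 104 and 110 CPM in those of Mono mice, against 268 to 462 CPM in the other neutrophils. Cxcr4, the receptor that holds cells in the marrow, was lower too, at 82.5 ± 21.99 CPM in secondary-granule and 497 ± 133 CPM in other neutrophils. Itgam, the alpha chain of Mac-1, averaged 287 ± 44.3 CPM and 158 ± 11.5 CPM. Ly6g, the usual surface marker of mouse neutrophils, was present in 91.8% of the cells and averaged 1104 ± 154 CPM and 344 ± 119 CPM. Cd101, a surface marker of mature mouse neutrophils, was found in 1.64% of secondary-granule neutrophils and in 9.33% of the other neutrophils that were not Fcnb cells (0.193% and 2.96% at 500 UMIs per cell), against 0.208% of the cells with B-cell genes.

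The genes of the enzymes that fill primary granules were near 0, with 3 UMIs of Mpo (myeloperoxidase) and 1 UMI of Elane (neutrophil elastase) over all 1036 cells. Of 15 measured genes of that list, 1 was above the fold limit and 2 below it, against 2.31% and 9.76% of all genes. The 1 above it was Serpinb1a, an inhibitor of neutrophil proteases, with 514 ± 81.7 CPM in secondary-granule and 134 ± 57.9 CPM in other neutrophils. Cell cycle transcripts were rare as well. Of 10 genes of dividing cells (Mki67, Top2a and 8 more), UMIs of at least 2 were held by 6 of the 1036 cells, and by 1 cell when each was thinned to 500 UMIs. The 6 cells were 3 of Mono+MCTR3 mouse 2 and 1 each of Mono mice 1, 3 and 4. Among the Fcnb cells, at a median of 8584 UMIs per cell against 4074, the unthinned share was 43.9%. At 500 UMIs per cell, 1.02% of Fcnb cells held Mki67 and 3.06% Top2a, against 0% and 0.0965% of secondary-granule neutrophils.

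Levels within the class were described by the share of Camp, Ngp and Ltf, which the rule used. The cells were divided into 526 with a share of 10% or more, 310 with 5% to 10% and 200 with 3% to 5%, and set beside the 98 Fcnb cells on 1 side and, on the other, 422 further neutrophils with 1% to 3% and 5022 with under 1%. Median UMIs per cell were 8584 in Fcnb cells, 4939, 3570.5 and 3203.5 in the 3 bins of secondary-granule neutrophils, and 2672 and 1558.5 in the outer bins. Total RNA captured thus moves along with the share, and its part in the levels was not tested. The figures that follow are mean CPM over mice in that order, and Camp, Ngp and Ltf set the bins. Each mouse counts alike in these means, though Mono+MCTR3 mouse 4 gave 1 Fcnb cell and Mono+MCTR3 mouse 2 gave 37.

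Chil3 had 8996 CPM in Fcnb cells, 3638, 790 and 188 CPM across the secondary-granule neutrophils, and 103 and 22.7 CPM in the outer bins. Cebpe had 714, then 332, 125 and 84.5, then 52.0 and 31.1 CPM. Serpinb1a had 1285, then 656, 362 and 249, then 156 and 29.1 CPM. These 3 genes had their highest level in Fcnb cells. Chil3 in the last bin lay below the 61.1 CPM measured in the cells with B-cell genes.

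Lta4h followed the same course with 658, then 264, 61.2 and 34.9, then 22.7 and 10.1 CPM. Orm1, an acute-phase plasma protein, had 293, then 87.1, 10.5 and 6.31, then 1.55 and 0.84 CPM. H2afz, a histone variant gene of the cell cycle list, had 2385, then 1294, 582 and 385, then 403 and 411 CPM, and so was level from the 3% to 5% bin onward.

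Cybb, Cd177 and Lcn2 held on for longer. Cybb had 857 CPM in Fcnb cells, 847, 612 and 377 CPM in secondary-granule neutrophils, and 256 and 80.8 CPM in the outer bins. Cd177 had 1207, then 1130, 1014 and 863, then 605 and 136 CPM. Lcn2 had 13945, then 13037, 8755 and 6894, then 4900 and 1544 CPM.

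Collagenase and gelatinase took the opposite direction at first. Mmp8 had 153 CPM in Fcnb cells, 2059, 2948 and 3043 CPM in secondary-granule neutrophils, and 2895 and 1125 CPM in the outer bins. Mmp9, the gelatinase of tertiary granules, had 215, then 1212, 1769 and 1492, then 1525 and 1067 CPM. Ceacam10 had 61.9, then 255, 349 and 490, then 408 and 247 CPM. For Mmp8 and Ceacam10 the highest level was in the 3% to 5% bin, and for Mmp9 in the 5% to 10% bin.

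Retnlg, with 1543 CPM in Fcnb cells, had 16163, 51437 and 71105 CPM in secondary-granule neutrophils, and 79152 and 45536 CPM in the outer bins. Il1b had 75.3, then 187, 565 and 1248, then 1681 and 4261 CPM. Ccl6 had 150, then 119, 544 and 1405, then 3085 and 8204 CPM. Il1b was highest in the neutrophils with the least granule transcript, whereas Retnlg was highest at 1% to 3%.

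Csf3r had 38.0, then 58.1, 110 and 127, then 225 and 731 CPM, and Cxcr2 18.1, then 80.3, 157 and 225, then 283 and 421 CPM. Fth1, the ferritin heavy chain, had 944, then 3198, 6355 and 10439, then 10614 and 19276 CPM. All 3 were at their highest in the last bin. Elane, the gene of neutrophil elastase, had 602 CPM in Fcnb cells and at most 0.80 CPM in every other bin, and Mki67, a marker of dividing cells, had 53.2 CPM in Fcnb cells and at most 1.43 CPM elsewhere.

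The ratios between Camp, Ngp and Ltf are a description only, since these genes set the bins. For every 100 Camp UMIs there were 103 Ngp UMIs in Fcnb cells, 125, 149 and 209 across the secondary-granule neutrophils, and 341 and 401 in the outer bins. For Ltf the counts were 17.7 in Fcnb cells, 26.0, 25.2 and 15.9 in secondary-granule neutrophils, and 10.1 and 15.9 in the outer bins.

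**Figure D3:**
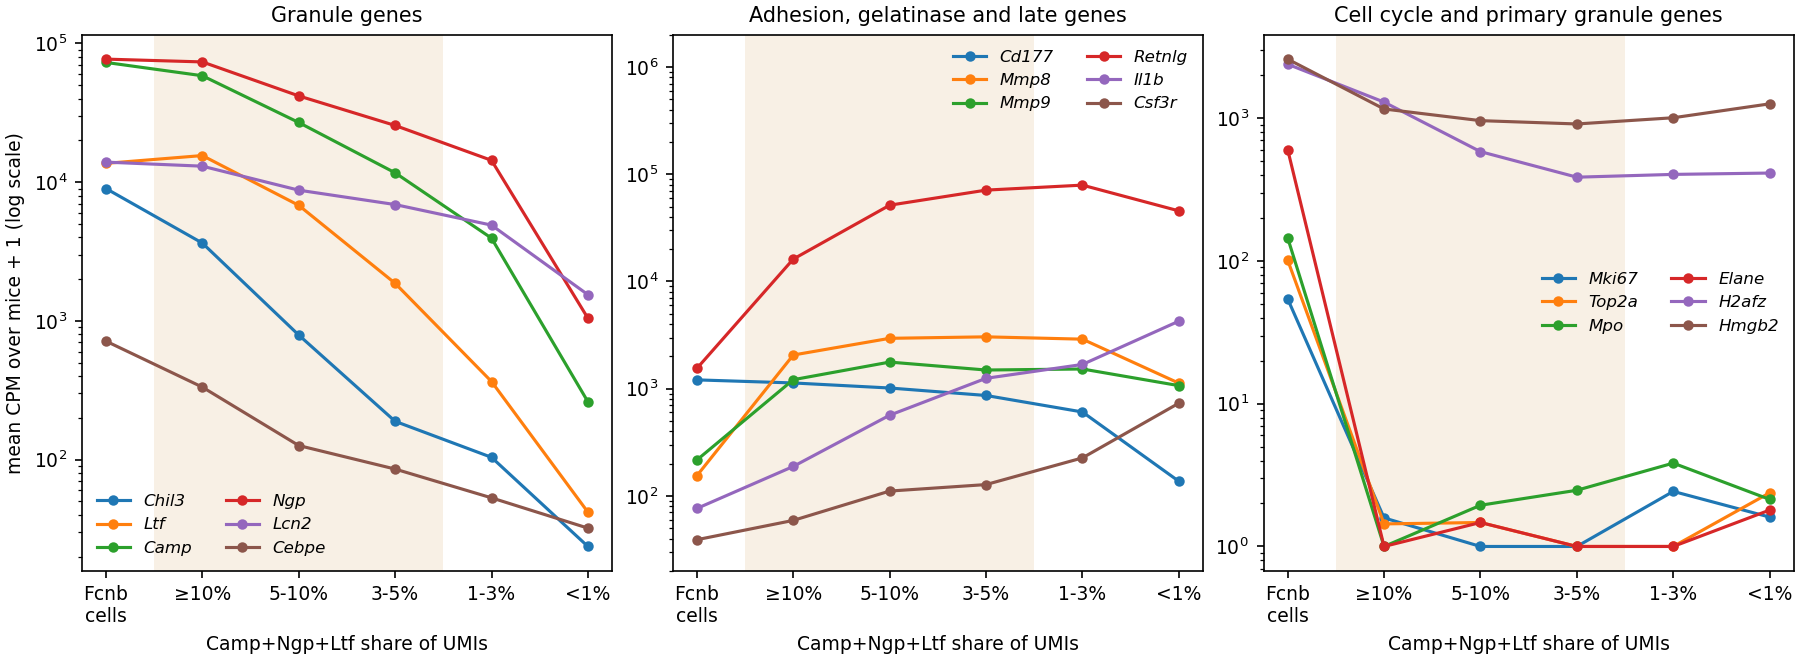
Mean CPM over mice plus 1 (vertical axes, log scale) of granule genes, adhesion, gelatinase and late genes, and cell cycle and primary granule genes, in Fcnb cells and in 5 bins of the share of Camp, Ngp and Ltf. The shaded bins are the secondary-granule neutrophils. Chil3 and Cebpe drop and Retnlg and Il1b climb across the shaded bins, whereas Elane, Mpo, Mki67 and Top2a are near 0 in all bins but the Fcnb cells.

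Markers of other cell types were low. The 8 genes of the B-cell list summed to 42.5 to 283 CPM in the secondary-granule neutrophils of Mono+MCTR3 mice and 53.7 to 255 CPM in those of Mono mice, with none of the 8 at 0. The 8 genes of the T-cell list summed to 37.2 to 54.4 CPM and 44.7 to 97.3 CPM. The 12 genes of the monocyte and macrophage list summed to 1222 to 1684 CPM and 1139 to 1561 CPM, but Ly6c2 alone, which immature neutrophils also express, averaged 1349 CPM. C1qa, a macrophage gene, was the only 1 of the 12 at 0 UMIs, and all others of the list were detected. The 7 genes of the erythroid list summed to 90.3 to 125 CPM in Mono+MCTR3 mice and 3.84 to 264 CPM in Mono mice. The ranges of the 2 groups overlapped for all 4 lists, and the part of these cells in the comparisons was not tested.

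The share of these cells was compared by mouse between recipients of MCTR3-incubated and of vehicle-incubated monocytes. Secondary-granule neutrophils made up 16.6%, 24.9%, 13.6% and 8.30% of the neutrophils of Mono+MCTR3 mice, and 13.6%, 7.35%, 17.04% and 22.1% of those of Mono mice. The means were 15.9% ± 6.92 and 15.0% ± 6.20 (SD, n = 4 each), a difference of 0.8287 percentage points (p = 0.80, two-sided exact permutation test). The groups overlapped almost entirely, and the difference took the opposite sign without Mono+MCTR3 mouse 2 (-2.17) or without Mono mouse 2 (-1.73). As a share of all cells kept, the values were 10.1%, 14.1%, 11.2% and 5.94% in Mono+MCTR3 mice and 8.85%, 4.88%, 11.5% and 11.9% in Mono mice (p = 0.686, two-sided exact permutation test). With 4 mice against 4, the smallest p this test can give is 0.0286.

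**Figure D4:**
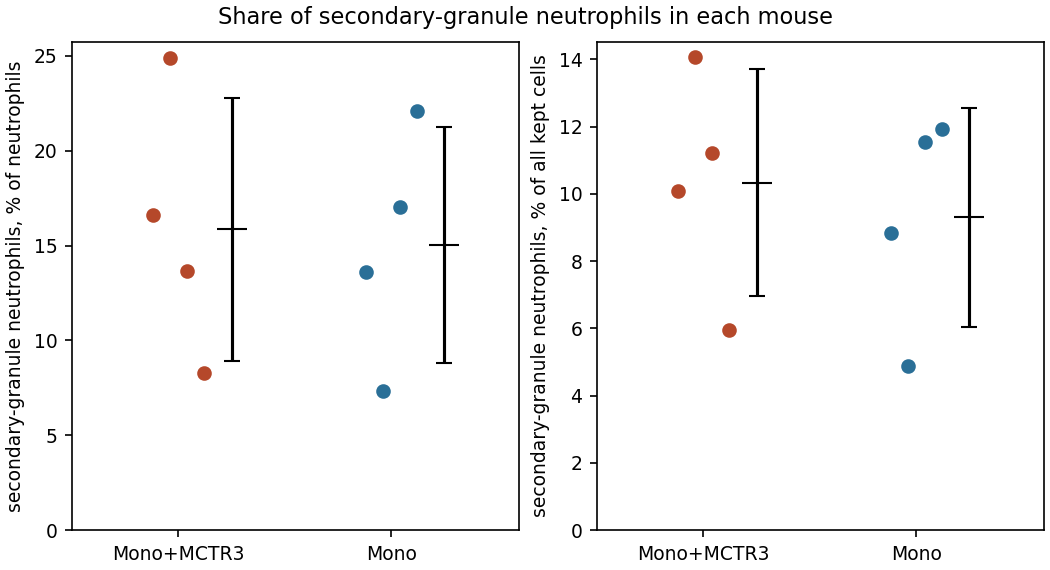
Secondary-granule neutrophils as a percentage of neutrophils (left panel) and of all cells kept (right panel), with 1 point per mouse and the mean with its SD beside the points. Mono+MCTR3 is on the left of each panel and Mono on the right, and the points of the 2 groups overlap in both panels.

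Depth was compared in the same way. The median UMIs per secondary-granule neutrophil were 3905, 4453, 4016 and 4020 in Mono+MCTR3 mice and 4164.5, 4052, 3620.5 and 4172 in Mono mice (p = 0.657, two-sided exact permutation test). The share of cells with cell cycle transcripts was 0.0929% ± 0.186 and 0% at 500 UMIs per cell (p = 1, exact permutation test), and rests on 1 cell.

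No gene of the secondary-granule neutrophils passed the test between Mono+MCTR3 and Mono. Of 2502 genes tested on UMIs summed per mouse, 0 (0%) had an adjusted p under 0.05 in edgeR's quasi-likelihood test with Benjamini-Hochberg adjustment, and 97 (3.88%) had an unadjusted p under 0.05. edgeR's likelihood ratio test on the same 2502 genes called 0 as well, with 97 at an unadjusted p under 0.05. DESeq2, run on 11068 genes without the filter on low counts, called 0, with 53 at an unadjusted p under 0.05. The 95% interval of the log2 fold change lay within ±1 for 2296 genes (91.8%), and its median half-width was 0.46. The CPM of the 2 groups did not overlap for 24 genes higher in Mono+MCTR3 (0.959%) and 25 lower (0.999%).

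Ltf, Ngp and Camp chose the cells, so their log2 fold changes of -0.05, -0.07 and 0.07 are a description. Of the 4 markers that the rule did not use, Cd177 had a log2 fold change of -0.06 (95% interval -0.28 to 0.15), Itgb2l -0.12 (-0.36 to 0.13), Lcn2 0.11 (-0.15 to 0.37) and Ifitm6 0.07 (-0.12 to 0.26). The adjusted p of these 4 was 0.999 in edgeR's quasi-likelihood test. The intervals bound the difference and do not show that the groups are equal.

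Ccl4, a chemokine that attracts monocytes and lymphocytes, had the smallest p. It had 36.3, 141, 387 and 37.2 CPM in Mono+MCTR3 mice and 43.2, 35.8, 36.5 and 27.4 CPM in Mono mice. Mice 2 and 3 of the Mono+MCTR3 group were high, and mice 1 and 4 lay within the range of the Mono group. The log2 fold change was 2.20 (SE 0.51, 95% interval 1.12 to 3.27), with an adjusted p of 0.932 in edgeR's quasi-likelihood test. In Mono+MCTR3 mouse 3, 1 cell held 126 of the 183 Ccl4 UMIs, and in mouse 2, 1 cell held 66 of the 180. Without the cell holding the most in each mouse, 17, 114, 57 and 5 Ccl4 UMIs remained in Mono+MCTR3 mice and 11, 9, 17 and 16 in Mono mice, from different numbers of cells. The log2 fold change was 1.39 without Mono+MCTR3 mouse 3. It was 1.51 with the limit on Camp, Ngp and Ltf at 2%, 1.42 with that limit at 5% and 1.42 with no limit on Fcnb. The likelihood ratio test of edgeR gave Ccl4 an adjusted p of 0.0571. Without Mono+MCTR3 mouse 1, Ccl4 was the 1 gene called, with a log2 fold change of 2.54 (adjusted p = 0.0238 in edgeR's quasi-likelihood test).

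Baz1a, Gapvd1, Fgd4 and Commd2 were the other 4 genes named as higher in Mono+MCTR3. Baz1a, a subunit of chromatin remodelling complexes, had 47.1, 41.7, 61.3 and 58.4 CPM in Mono+MCTR3 mice and 38.9, 35.8, 17.3 and 15.9 CPM in Mono mice. Gapvd1, Fgd4 and Commd2 had log2 fold changes of 0.98, 0.79 and 1.02. The groups did not overlap for Baz1a, Gapvd1 and Fgd4 and overlapped for Commd2, and all 4 adjusted p were 0.999 in edgeR's quasi-likelihood test. These genes were picked for a small p, which favours such separation, so it is no further support. Over all 2502 genes, 24 (0.959%) were separated in this direction. Gapvd1 had only 6 UMIs in Mono+MCTR3 mouse 4 and 5 in Mono mouse 2.

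Rel, the gene of the NF-kappaB subunit c-Rel, had 12.7, 10.2, 14.8 and 21.2 CPM in Mono+MCTR3 mice and 32.4, 26.8, 30.7 and 21.6 CPM in Mono mice, a log2 fold change of -1.07 (SE 0.31). Every Mono+MCTR3 mouse was below every Mono mouse, though by a narrow margin, with 4 UMIs in Mono+MCTR3 mouse 4. Rel was picked for a small p, and 25 of 2502 genes (0.999%) were separated in this direction. Syf2, a splicing factor, had 120, 90.4, 90.9 and 95.6 CPM in Mono+MCTR3 mice and 160, 155, 131 and 128 CPM in Mono mice, a log2 fold change of -0.50 (SE 0.15). Slc16a3, a lactate exporter, averaged 500 ± 66.3 CPM in Mono+MCTR3 mice and 658 ± 77.4 CPM in Mono mice (SD, n = 4 each), a log2 fold change of -0.39. Spag7 and Osbpl2 had log2 fold changes of -0.92 and -0.999. None of these 5 passed, with an adjusted p of 0.999 each in edgeR's quasi-likelihood test.

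**Figure D5:**
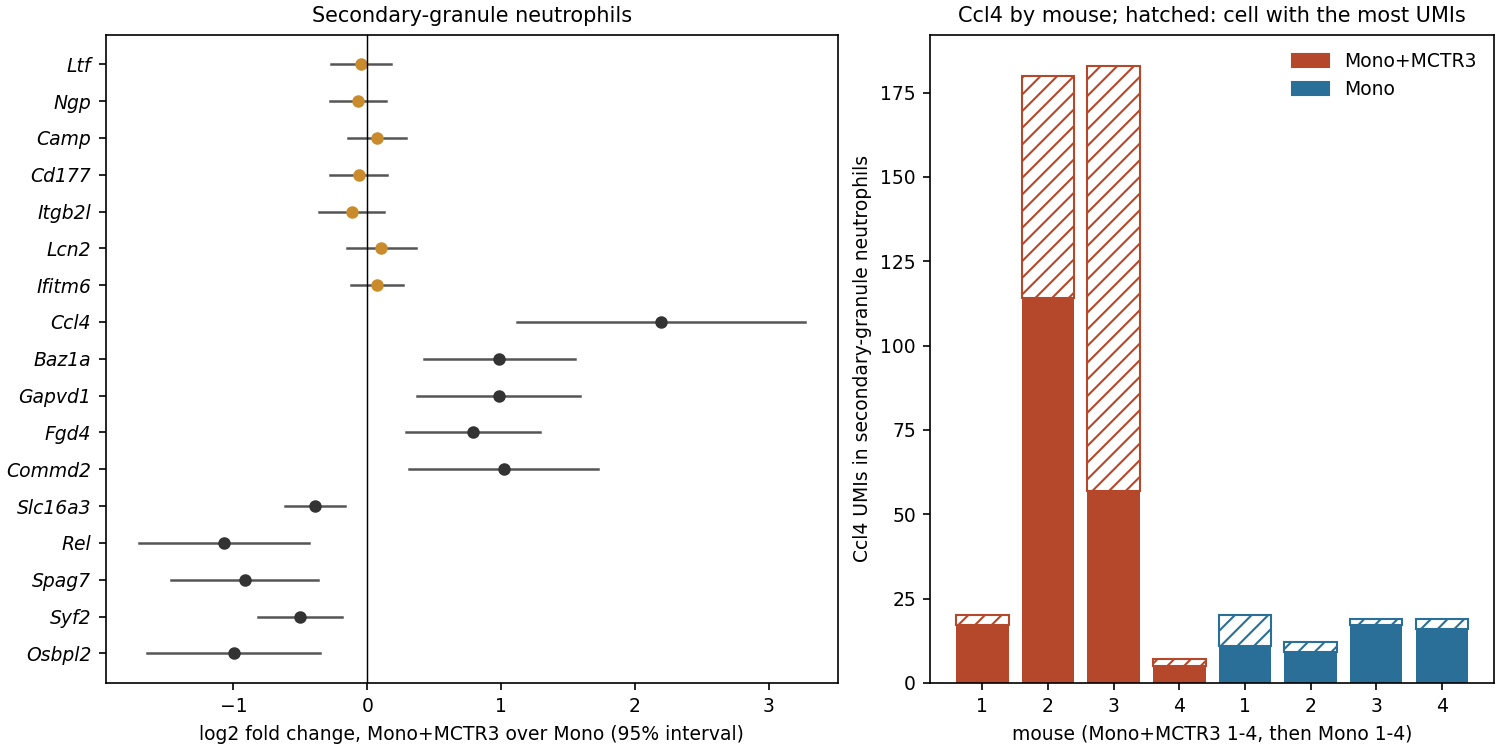
Left, log2 fold change of Mono+MCTR3 over Mono with its 95% interval in secondary-granule neutrophils, for the 7 markers (orange) and the 10 genes with the smallest p in either direction (black). Right, Ccl4 UMIs in each mouse, with the cell that holds the most UMIs hatched. The intervals of the 4 markers that the rule did not use include 0, those of Ltf, Ngp and Camp are a description because these genes chose the cells, and in Mono+MCTR3 mouse 3 the hatched part is 126 of 183 UMIs.

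By list, 0 genes were called in any, against 0% over all genes tested. The 19 secondary-granule genes had a median log2 fold change of 0.05, between -0.12 and 0.59, and 11 of them were positive. The 19 include Ltf, Camp and Ngp, which chose the cells, so the figures of this list are a description. The 19 mature neutrophil genes had a median of -0.04, the 14 inflammatory cytokine genes 0.11, the 16 migration genes -0.04 and the 9 oxidase genes 0.02. The median over all 2502 genes was -0.0011.

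The response of secondary-granule neutrophils was then compared with that of the other neutrophils in 1 model with the mouse as a block. Of 4703 genes tested, 0 (0%) passed and 208 had an unadjusted p under 0.05 in edgeR's quasi-likelihood test of the interaction. On simulated sums with 1 spread for all genes, this test recovered 8% of genes changed by log2 1 and 70% by log2 2. That spread was set and not fitted to these data, so the shares do not measure recovery here. The count of 0 does not show that the 2 classes responded alike. In the other neutrophils alone, 0 of 4669 genes (0%) passed and 224 had an unadjusted p under 0.05. Isg15, an interferon-induced ubiquitin-like protein, had 23.6, 49.5, 71.8 and 37.2 CPM in the secondary-granule neutrophils of Mono+MCTR3 mice and 19.5, 26.8, 24.96 and 33.2 CPM in those of Mono mice. In the other neutrophils it had 258, 181, 206 and 329 CPM in Mono+MCTR3 mice and 338, 424, 388 and 244 CPM in Mono mice. The groups overlapped in both classes. The difference of the 2 log2 fold changes was 1.32 (SE 0.36), with an adjusted p of 1.00 in edgeR's quasi-likelihood test.

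The remaining genes named for the interaction did not pass either. Camk1d, a calcium-dependent kinase, had a difference of 1.90, and Ptafr, the receptor for platelet-activating factor, of 0.68. Ms4a3, Slc10a3 and Mapk13 had differences of -2.78, -3.01 and -0.61. Camk1d, Ms4a3 and Slc10a3 had 29, 21 and 21 UMIs in all secondary-granule neutrophils together, too few for a fit in these cells alone. Ccl4 had a log2 fold change of 0.51 in the other neutrophils, and the difference of 1.495 had an adjusted p of 1.00 in edgeR's quasi-likelihood test.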

How the data were processed

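The counts the authors deposited are UMIs per gene in each barcode, in a separate table for each group. They came from Cell Ranger (STAR aligner, GRCm38), and its aggregation step joined the mice of a group, which may equalise depth within but not between groups. No source used here gives its version. Cells were kept if they had 250 to 3000 genes, 500 UMIs or more and mitochondrial UMIs of 5% or less (10256 of 10538). Scrublet (Scanpy 1.11.5, seed 0) marked doublets, which were kept.

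UMIs of the cells were summed per mouse and compared with edgeR 4.0.16 in R 4.3.3 (TMM, filterByExpr, quasi-likelihood test, adjusted p under 0.05). Mouse was a block for the interaction. DESeq2 1.42.0, the likelihood ratio test, library totals, no filter on low counts, other limits on the cells, doublets removed and each mouse left out were tried as alternatives. Single values were compared with two-sided exact permutation tests, and p-values measure the spread between mice. Intervals on counts cover counting error only, with 3 counts as the limit of a 0. Scripts were tested on simulated data.

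The members, lists and rules were chosen with earlier results of these data known. Genes named are the genes of the rule, the 7 markers, the 10 highest and 10 lowest ratios, the 5 genes in each direction (3 for the interaction) of smallest p, and up to 5 genes of each list with the most UMIs. Other list genes, Ly6g, Cd101 and Ly6c2's share of its list were chosen after their values were seen. Upstream sequences are from RefSeq. Cebpd was not analysed here, and the result of 1 gene is not reported here.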

Additional observations from a re-analysis of the deposited data

Results flagged for a closer look

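Among 56 groups of 4 mice, 3 values stood apart from the rest of their group by Dixon's test, and chance flags about 1 in 20 groups. Fcnb cells made up 0.573% of the neutrophils in Mono mouse 2, against 1.38% to 1.47% in the other 3 Mono mice. Gapvd1 reached 23.8 CPM in the secondary-granule neutrophils of Mono mouse 1, against 13.4 to 14.9 CPM in the other 3. Commd2 reached 29.8 CPM in those of Mono mouse 2, against 10.1 to 12.97 CPM in the other 3.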

How the results depend on the processing

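Of the alternatives to the count of 0 genes changed between Mono+MCTR3 and Mono, only the omission of the filter on low counts and the omission of Mono+MCTR3 mouse 1 gave another number. Without the filter, edgeR's quasi-likelihood test called 5 of 11068 genes (Ccl4 higher; Mt1, Retnla, Hspa1a and Stfa2 lower), with a log2 fold change of 2.19 for Ccl4 (adjusted p = 1.95e-23), and 4 genes in the interaction, with a difference of 1.34 for Isg15. The cause was not tested. Leaving out each mouse gave 0 to 1 called genes, and 0 in the interaction. Over these, the log2 fold change of Ccl4 ran from 1.39 to 2.54.

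The difference in share of neutrophils was -0.0345 percentage points with S100a8 and S100a9 at 10% or more, and ran from -2.17 to 3.35 when each mouse was left out. For the share of all cells kept the range was -0.447 to 2.49. The difference in median UMIs was -52.25 with Camp, Ngp and Ltf at 5% or more, -18.9 with no limit on Fcnb, and ran from -31.0 to 160.75 when each mouse was left out. The difference in the share with cell cycle transcripts was -0.307 percentage points without thinning, where Mono+MCTR3 mice had 0.279% and Mono mice 0.586%, and ran from 0 to 0.124 when each mouse was left out. None of these differences passed its test.

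The limits of the rule moved the number of cells from 836 (Camp, Ngp and Ltf at 5% or more) to 1196 (2% or more). The smallest mouse gave 45 cells. No paired analysis was possible because neither the labels nor the barcode numbers pair mice across the groups.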

Other observations

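The secondary-granule neutrophils also differed from the other neutrophils in gene groups not described so far, again as a description with no test. Of 15 measured interferon response genes, 9 were at least 2-fold lower in 8 of 8 mice and 0 higher, with a median log2 ratio of -1.19, against 9.76% of all genes on the low side. Ifitm2, an antiviral membrane protein, averaged 784 ± 133 CPM in secondary-granule neutrophils and 1901 ± 349 CPM in other neutrophils, whereas its relative Ifitm3 averaged 1153 ± 87.1 CPM and 1151 ± 130 CPM (SD, n = 8 mice). Of 20 immediate early and heat shock genes, which can respond to tissue digestion, 11 were lower and 0 higher, with a median of -1.04. Dusp1, a phosphatase of that list, averaged 242 ± 118 CPM and 1293 ± 589 CPM.

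Genes of iron handling were divided. Ltf, which the rule used, and Lcn2 were higher. Of the 11 measured genes, 3 were lower, among them both ferritin chains, against 9.76% of all genes. Fth1 averaged 5140 ± 817 CPM in secondary-granule neutrophils and 16981 ± 3830 CPM in other neutrophils, and Ftl1 2943 ± 193 CPM and 10012 ± 2238 CPM. Glycolysis genes were largely alike, with 1 of 15 above the fold limit and 1 below it, against 2.31% and 9.76% of all genes. The 1 above it was Ldha, the muscle-type lactate dehydrogenase, at 714 ± 88.2 CPM and 333.2 ± 35.4 CPM.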
